A study of Mus musculus with 20 samples.

Results

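The genes described here encode the complement system, the set of plasma and membrane proteins that marks and lyses microbes. They were chosen by symbol: every probe row whose symbol stood on a list of 32 complement genes was taken, whatever its values. A probe was present for 31 of the 32 genes, with 56 probes among the 30146 probes and 21450 symbols of the whole table, and C4a was not analysed here. Complement is switched on through 3 routes: the classical pathway through C1, the lectin pathway through mannose-binding lectins, ficolins and collectins, and the alternative pathway through factor B. All routes meet at C3, and cleaved C5 then assembles with C6, C7, C8 and C9 into a pore in the target membrane, while regulators in plasma and on host cells hold the cascade back. Hepatocytes are the main source of most of these plasma proteins, whereas factor D comes chiefly from fat and properdin from leukocytes.

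Livers came from male Balb-C mice aged 10 to 12 weeks that received PFESA-BP2 (Nafion byproduct 2), a fluorinated ether sulfonic acid, by gavage once a day for 7 days. There were 4 mice and 4 libraries in each of 5 groups: vehicle controls at 0 mg/kg, then daily doses of 0.03, 0.3, 3 and 6 mg/kg. Deionized water is given as the vehicle in the protocols, whereas the control titles carry the word DMSO, so which vehicle was used is not settled here. Transcripts were counted with TempO-Seq, in which pairs of short detector oligonucleotides that anneal side by side on an RNA are ligated and sequenced, so that each probe reads 1 short stretch of a transcript.

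Library totals ran from 6823518 to 10310931 counts, and the 56 complement probes took 1.40% to 2.33% of them. Levels are given in CPM, the count set against the library total after scaling by the trimmed mean of M values (TMM), and 3 counts, taken here as the floor, corresponded to 0.251 to 0.511 CPM. Amplified counts are not independent molecules, so this floor covers counting error only. Probes differ in how well they capture their target, so levels are compared between livers and not between genes. Replicate 4 at 3 mg/kg stood apart, with a mean correlation of 0.892 with the rest of its group, where the other libraries had 0.949 or more. It was the lowest of all 20 libraries for 25% of the 52 tested complement probes and for 19.7% of all tested probes, and replicate 4 at 6 mg/kg was the lowest for 25% and 17.4%. Each was also the highest for 11.5% of the complement probes. Of all tested probes, replicate 4 at 3 mg/kg was the highest for 11.2% and replicate 4 at 6 mg/kg for 20.2%. Counts of calls that change without these libraries are given both ways. All control and 0.03 mg/kg libraries were in plate row A and all 3 and 6 mg/kg libraries in row B, so a difference between these rows and a difference between these doses cannot be told apart. The 0.3 mg/kg group had 3 libraries in row A and replicate 4 in row B. In fits of the dose groups with plate row in the model, the row term rests on that 1 library against the other 3 of its group. Such a fit cannot tell a row difference from the spread of that library.

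All 8 hepatocyte marker genes were detected and tested, as the label of liver tissue would have it, and their summed level was 17220 to 21450 CPM at 6 mg/kg against 26020 to 33580 CPM in controls. Alb, the gene of albumin, was called lower, with a log2 change of -0.82 (SE 0.24, adjusted p = 0.0209), as were Cyp2e1 and Serpina1a. By main probe Tat was called higher, and Ttr, Apoa1, Cps1 and Hnf4a were not called, while a second probe of Apoa1 was lower at -0.62 (SE 0.18, adjusted p = 0.0172). The part of these shifts in the complement results was not tested. For the markers that were lower, fewer hepatocytes and less RNA of those genes per hepatocyte cannot be told apart in liver tissue.

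After 7 days at 6 mg/kg, 11 of the 28 complement genes whose main probe could be tested were lower than in controls and 0 were higher. The main probe is the one with the highest mean count, a call is an adjusted p under 0.05 in edgeR over all 14122 tested probes, and in the same test 9.64% of all 10097 genes were lower and 10.9% higher. The lower genes were C1ra, C1s1, Mbl1, Cfb, C8a, C8b, C9, C4bp, Cfi, Cfhr2 and Vtn. The median log2 change over the 28 genes was -0.49, where it was -0.022 over all genes, and 22 of the 28 changes were negative. An unadjusted p under 0.05 was reached by 17 of the 28 genes, or 60.7%, and by 35.3% of all genes. DESeq2 called 12 lower and 0 higher, and limma-voom 11 lower and 0 higher. Scaling by total counts alone, which moved the median log2 change of all tested probes to 0.15 in place of 0.011, left 6 genes lower, and with it 811 of all probes were lower and 1894 higher, in place of 1233 and 1634. Counting every probe, 21 of 52 were lower and 1 was higher, where 8.73% and 11.6% of all probes were. With plate row in the model, where the row term rests on replicate 4 at 0.3 mg/kg alone, 4 genes were lower. Without replicate 4 at 3 mg/kg 15 were lower, with C2, Hc, Masp1 and Serping1 added to the 11, and 3 (C1rl, C3 and C6) were higher. Without replicate 4 at 6 mg/kg 10 were lower, with C8a, C4bp and Vtn lost and Colec10 and Fcna gained. Without control replicate 1, and likewise without replicate 3 at 6 mg/kg, 7 were lower, and these were C1ra, C1s1, Mbl1, Cfb, C8b, C9 and Cfhr2. Without both replicates 4 (3 and 6 mg/kg), 16 were lower, with C8a lost and C2, Colec10, Fcna, Hc, Masp1 and Serping1 gained, and 1, C6, was higher.

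**Figure D1:**
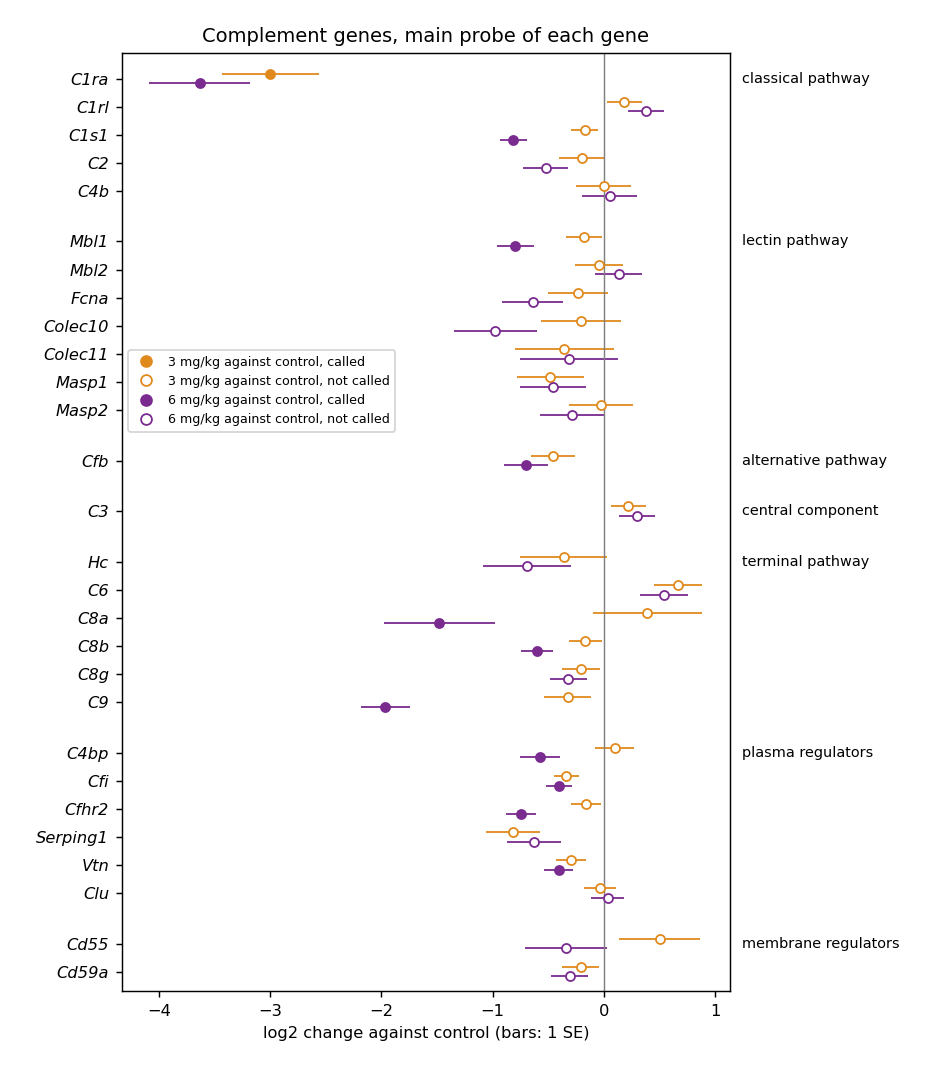
Log2 change of the main probe of each of 28 complement genes at 3 mg/kg (orange) and 6 mg/kg (purple) against the same 4 control livers, grouped by role, with bars of 1 SE. Filled symbols mark the 11 genes called lower at 6 mg/kg and C1ra, the 1 gene called at 3 mg/kg.

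The sequence before the start site of some of the genes that fell is shown here because several of them hold the same short stretch. RefSeq windows of build GRCm38.p6 were at hand for 23 of the 32 genes, and 250 bases before each start were searched on both strands. The letters GTTAAT, which read ATTAAC on the other strand, stood in 9 of the 23 genes, or 39.1%, and in 7.49% of 27025 genes with a window. Of the genes called lower at 6 mg/kg, 6 of 9 with a window held it, which were C1ra, C8a, C8b, C4bp, Cfhr2 and Vtn. C1s1, Mbl1 and C9 did not. Among tested genes that were not called, 1 of 11 held it, Hc. This split follows the calls of the fit of all 20 libraries. In 20 fits that left out a library, C8a lost its call in 11, Vtn in 6 and C4bp in 4. Hc was called when replicate 4 at 3 mg/kg was left out. The split by call was not made over all genes. These counts describe the windows and were not tested, and letters in a window are not a bound site. Windows of C1ra, Vtn, C1s1 and Mbl1, also called lower, are not printed, so the printed windows do not show the share with the letters. The following windows run from 250 to 31 bases before the start, 5′ to 3′ on the strand of the gene, with GTTAAT or ATTAAC in capitals, or in C9 the C/EBP letters.
C9, chr15:6445096-6445315, plus strand: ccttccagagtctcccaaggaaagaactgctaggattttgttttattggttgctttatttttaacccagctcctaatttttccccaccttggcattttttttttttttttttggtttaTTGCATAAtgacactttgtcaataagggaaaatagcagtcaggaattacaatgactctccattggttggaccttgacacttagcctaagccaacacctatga
C8b, chr4:104766067-104766286, plus strand: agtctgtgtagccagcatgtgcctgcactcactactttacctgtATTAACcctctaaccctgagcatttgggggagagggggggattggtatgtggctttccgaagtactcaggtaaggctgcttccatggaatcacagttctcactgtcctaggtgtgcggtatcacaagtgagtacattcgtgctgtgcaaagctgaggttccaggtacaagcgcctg
C8a, chr4:104876429-104876648, minus strand: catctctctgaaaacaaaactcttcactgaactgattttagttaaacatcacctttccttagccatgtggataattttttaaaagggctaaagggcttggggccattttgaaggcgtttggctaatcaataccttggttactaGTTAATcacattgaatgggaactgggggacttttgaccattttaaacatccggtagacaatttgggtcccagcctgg
Cfhr2, chr1:139858730-139858949, minus strand: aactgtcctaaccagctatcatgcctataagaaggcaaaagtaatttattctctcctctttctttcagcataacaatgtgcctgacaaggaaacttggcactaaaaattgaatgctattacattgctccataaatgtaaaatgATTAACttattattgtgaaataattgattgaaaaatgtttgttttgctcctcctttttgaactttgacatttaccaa
C4bp, chr1:130661649-130661868, minus strand: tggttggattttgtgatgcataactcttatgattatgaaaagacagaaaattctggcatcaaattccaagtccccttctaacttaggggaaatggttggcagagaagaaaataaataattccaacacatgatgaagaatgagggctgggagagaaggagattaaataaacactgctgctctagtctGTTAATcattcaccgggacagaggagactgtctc

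The distance of the letters from the start varied among these windows: -206 to -201 in C8b, -107 to -102 in both C8a and Cfhr2, and -64 to -59 in C4bp. The C9 window held no GTTAAT but had the C/EBP letters TTGCNNAA (TTNNGCAA on the other strand) at -132 to -125. Those letters stood in 4 of the 23 genes, C1rl, C1s1, C3 and C9, a share of 17.4% where 10.8% of all windows held them. The STAT letters TTCNNNGAA stood in 4 of 23 against 8.13% of all windows, the interferon response letters GAAANNGAA (TTCNNTTTC) in 2 of 23 against 8.18%, and the HNF4 letters CAAAGTCCA (TGGACTTTG) in 0 of 23 against 0.451%. The STAT and interferon patterns both end in GAA and can share bases.

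C1ra, C1s1 and the other genes of the classical pathway gave 2 lower calls and 0 higher calls among 5 tested genes, with a median log2 change of -0.52. Over all genes 9.64% were lower and 10.9% higher at 6 mg/kg. C1ra encodes C1r, the protease that activates C1s inside the C1 complex. In the fit of all 20 libraries it had the largest fall of the 28 genes, with 2.64, 2.19, 2.13 and 2.10 CPM in the livers at 6 mg/kg, against 30.2, 23.9, 21.8 and 37.1 CPM in controls. The other livers held 29.8, 22.5, 29.9 and 15.7 CPM at 0.03 mg/kg, 25.1, 42.8, 34.8 and 13.2 CPM at 0.3 mg/kg and 3.87, 4.85, 5.28 and 0.572 CPM at 3 mg/kg. Every liver at 3 and 6 mg/kg lay under every liver of the other groups. The level at 6 mg/kg was 8.06% of control, a log2 change of -3.63 (SE 0.45, adjusted p = 1.51e-05), from 18 to 22 counts per library. With plate row in the model the change was -2.26 (adjusted p = 0.0659). In the 0.3 mg/kg group, the library in row B held the lowest of the 4 values, 13.2 CPM. In GRCm38 C1ra lies at chromosome 6, 124512405 to 124523443, plus strand, with C1s1 (124530345 to 124542359, minus strand) and the close copy C1rb (124570294 to 124581171, plus strand) beside it. Counts may be shared between C1ra and C1rb. The C1rb probe averaged 56.1 ± 6.05 CPM at 6 mg/kg and 64.2 ± 15.7 CPM in controls (SD, n = 4 each) and was not called.

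C1s1 encodes C1s, which C1r cleaves and which in turn cleaves C4 and C2. Its main probe had 448, 365, 369 and 324 CPM at 6 mg/kg, against 662, 705, 604 and 672 CPM in controls. It had 672, 709, 691 and 610.2 CPM at 0.03 mg/kg, 565, 572, 604 and 707 CPM at 0.3 mg/kg and 628, 589, 550.1 and 582 CPM at 3 mg/kg. All livers below 6 mg/kg held at least 550.1 CPM, so the 6 mg/kg livers stood alone, with a log2 change of -0.81 (SE 0.12, adjusted p = 8.03e-05). A further C1s1 probe changed by -0.38 (SE 0.17, adjusted p = 0.116) and another by -1.27 (SE 0.56, adjusted p = 0.117), neither of them called. C1rl, a C1r-like protease, had a log2 change of 0.38 (SE 0.16, adjusted p = 0.0941). For C2, which forms the C3 convertase with C4, the main probe changed by -0.52 (SE 0.20, adjusted p = 0.0714) without overlap between the groups, and its other probes by 0.29 (SE 0.11) and 1.01 (SE 0.37). The probes of C2 thus did not share a sign. C4b encodes C4 and has a near-identical copy in C4a, and its main probe was at 62.1 ± 6.21 CPM against 59.8 ± 21.7 CPM in controls (SD, n = 4 each), with a log2 change of 0.05 (SE 0.25, adjusted p = 0.898).

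**Figure D2:**
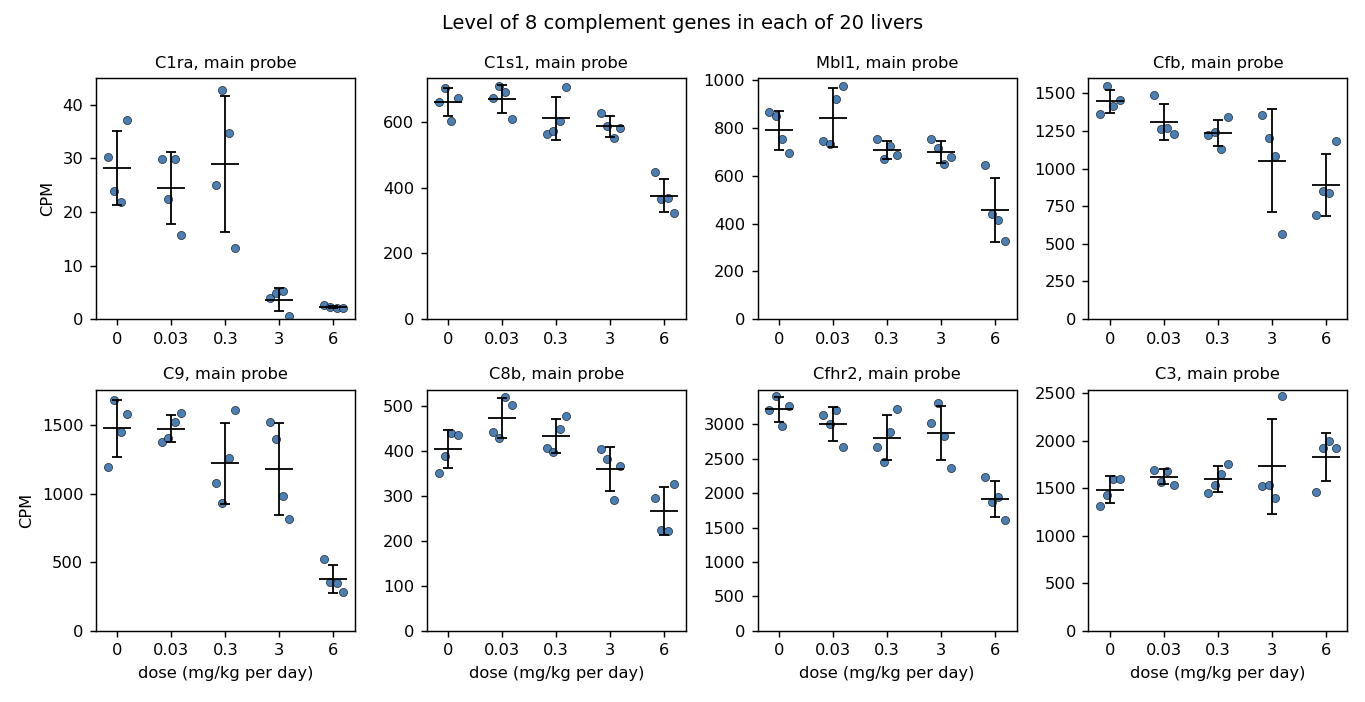
Level of the main probe of 8 complement genes in each of 20 livers, in CPM on linear axes from 0, by dose from control (0) to 6 mg/kg. Points are livers, and black marks are the mean and SD of 4 livers. C1ra is low at both 3 and 6 mg/kg, C1s1, Mbl1, C9 and Cfhr2 are low at 6 mg/kg, and C3 is not lower.

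Among the 7 genes of the lectin pathway, Mbl1 was called lower and 0 were called higher, with a median log2 change of -0.46. That is 14.3% lower, near the 9.64% of all genes that were. Mbl1 (chromosome 14, 41151458 to 41159601, plus strand) encodes mannose-binding lectin A, which recognises sugars on microbes. Its main probe had 645, 438, 416 and 327 CPM at 6 mg/kg, against 865, 852, 754 and 693 CPM in controls. It held 744, 733, 919.9 and 975 CPM at 0.03 mg/kg, 752, 669, 726 and 689 CPM at 0.3 mg/kg and 755, 716, 651 and 677 CPM at 3 mg/kg. At 6 mg/kg, replicate 1 was close to the other doses and the other 3 livers were well under them. The log2 change was -0.79 (SE 0.16, adjusted p = 0.00184), and the other Mbl1 probes were called lower too, at -0.63 (SE 0.17, adjusted p = 0.0138) and -2.16 (SE 0.34, adjusted p = 0.000155). Mbl2, the gene of mannose-binding lectin C, was not called, with a log2 change of 0.13 (SE 0.21, adjusted p = 0.686) and 0.61 (SE 0.25, adjusted p = 0.0904) for its second probe. The difference between Mbl1 and Mbl2 was not tested. The remaining genes had negative values that were not called: the ficolin Fcna -0.64 (SE 0.27), the collectins Colec10 -0.97 (SE 0.37) and Colec11 -0.31 (SE 0.44), and the proteases Masp1 -0.46 (SE 0.30) and Masp2 -0.28 (SE 0.29). Colec10 was called by DESeq2 and limma-voom, and Masp1 was called lower when replicate 4 at 3 mg/kg was left out. Fcna, Colec10 and Colec11 lay at 0.477 to 13.5 CPM in all libraries. Kupffer cells express Fcna, and the 10 Kupffer cell markers summed to 72.4 to 118.8 CPM at 6 mg/kg against 111.9 to 163.7 CPM in controls. Of 8 tested markers 1, C1qb, was called lower, or 12.5% where 9.64% of all genes were. C1qb made up the largest part of the fall of the sum, with a mean of 25.3 CPM at 6 mg/kg and 57.5 CPM in controls. The changes of all 8 were negative. Marco was at 0 in every 6 mg/kg library and at 0 to 0.422 CPM in controls, too low to be tested. The part of these markers in the Fcna level was not tested.

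In the alternative pathway Cfb was the 1 gene that could be tested. It encodes factor B, the protease of the alternative C3 convertase, and lies at chromosome 17, 34856374 to 34862518, minus strand, next to C2. Cfb had 692, 849, 839 and 1181 CPM at 6 mg/kg, against 1364, 1549, 1417 and 1456 CPM in controls. In order of dose, the other groups had 1489, 1261, 1266 and 1229 CPM at 0.03 mg/kg, 1223, 1239.8, 1129.7 and 1340.3 CPM at 0.3 mg/kg and 1356, 1202, 1083 and 568 CPM at 3 mg/kg. The 6 mg/kg and control livers did not overlap, and the log2 change was -0.70 (SE 0.20, adjusted p = 0.0159) for the main probe and -0.45 (SE 0.13, adjusted p = 0.0178) for the other. With plate row in the model the change of the main probe was -0.86 (adjusted p = 0.195). Cfd, the gene of factor D, had 0 counts in each of the 4 livers at 6 mg/kg, against 0, 2, 0 and 2 counts in controls. It had 1, 1, 2 and 0 counts at 0.03 mg/kg and 0 in all livers at 0.3 and 3 mg/kg, so no difference was detectable at this depth. Cfp, the gene of properdin, had 0, 3, 0 and 0 counts at 6 mg/kg, against 1, 5, 2 and 0 counts in controls. It had 2, 0, 4 and 3 counts at 0.03 mg/kg, 0, 1, 1 and 3 at 0.3 mg/kg and 1, 0, 1 and 0 at 3 mg/kg, near or under the floor throughout. The 4 adipocyte markers summed to 0 to 0.244 CPM at 6 mg/kg and 0 to 0.844 CPM in controls, with Lep at 0 in every library at 6 mg/kg.

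C3, the protein on which all routes meet, was not lower. The main probe had 1459, 1925, 2003 and 1927 CPM at 6 mg/kg, against 1314, 1428, 1603 and 1598 CPM in controls. It had 1694, 1572, 1684 and 1533 CPM at 0.03 mg/kg, 1448, 1535, 1654 and 1757 CPM at 0.3 mg/kg and 1522, 1536, 1396 and 2472 CPM at 3 mg/kg. Replicate 1 at 6 mg/kg lay within the control range and the other 3 above it. The log2 change was 0.30 (SE 0.16, adjusted p = 0.187), and the other C3 probes had 0.42 (SE 0.20) and 0.56 (SE 0.23), all positive and none called. Without replicate 4 at 3 mg/kg, which held 2472 CPM, the adjusted p of the main probe was 0.0496, and over all 20 fits that left out a library it ran from 0.0496 to 0.357.

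The terminal pathway, which builds the membrane pore, gave 3 lower calls and 0 higher calls among 6 tested genes, with a median log2 change of -0.64. Over all genes 9.64% were lower and 10.9% higher at 6 mg/kg. C9 is the component that polymerises into the wall of the pore, and its gene lies at chromosome 15, 6445327 to 6498751, of GRCm38. Its main probe had 526, 358, 349 and 282 CPM at 6 mg/kg, against 1199, 1682, 1451 and 1580.4 CPM in controls. The livers in between held 1377, 1409, 1522 and 1591 CPM at 0.03 mg/kg, 1079, 933, 1263 and 1612 CPM at 0.3 mg/kg and 1525, 1401, 981 and 815 CPM at 3 mg/kg. Every liver at 6 mg/kg lay under every other liver. C9 at 6 mg/kg was at 25.6% of control, a log2 change of -1.96 (SE 0.22, adjusted p = 2.29e-06). The other 3 probes of C9 were all called lower, at -3.43 (SE 0.69, adjusted p = 0.00191), -2.67 (SE 0.45, adjusted p = 0.00041) and -2.20 (SE 0.36, adjusted p = 0.000233). The main probe of C9 was called in all 11 other settings and all 20 fits that left out a library. Its log2 change ran from -2.53 to -1.83 over the other settings and from -2.16 to -1.87 with 1 library left out.

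C8 is made of an alpha, a beta and a gamma chain, encoded by C8a, C8b and C8g. C8b and C8a are neighbours on chromosome 4, C8b at 104766317 to 104804548, plus strand, and C8a at 104815679 to 104876398, minus strand. C8b had 296, 224, 221 and 326 CPM at 6 mg/kg, against 351, 389, 440.5 and 436 CPM in controls. Its values were 442, 428, 519.6 and 502 CPM at 0.03 mg/kg, 405, 397, 449 and 478 CPM at 0.3 mg/kg and 404, 381, 290.1 and 365 CPM at 3 mg/kg. Control and 6 mg/kg livers did not overlap, and both probes were called, at -0.60 (SE 0.15, adjusted p = 0.00649) and -1.31 (SE 0.46, adjusted p = 0.0496). The main probe of C8a had 127, 113, 98.8 and 106 CPM at 6 mg/kg, against 263, 184, 189.9 and 602 CPM in controls. It had 396, 233, 199 and 116 CPM at 0.03 mg/kg, 101, 124, 157 and 521 CPM at 0.3 mg/kg and 526, 518, 353 and 228 CPM at 3 mg/kg. This probe varied widely between livers of the same group, and the call at 6 mg/kg, -1.48 (SE 0.50, adjusted p = 0.0437), was lost in 11 of 20 fits that left out a library, where adjusted p ran from 0.0135 to 0.209. The log2 change of C8a was -0.92 without control replicate 4, the highest control. The other C8a probe was at 245 ± 62.6 CPM at 6 mg/kg and 247 ± 15.2 CPM in controls (SD, n = 4 each), a log2 change of -0.01 (SE 0.17, adjusted p = 0.962), so the fall of C8a rests on 1 of its 2 probes. C8g was not called, at -0.32 (SE 0.17, adjusted p = 0.182).

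Hc, the gene of C5, and C6 also belong to the pore, which C5b starts and C6 joins next. The main probe of Hc had 286, 354, 357 and 344 CPM at 6 mg/kg, against 445, 515, 548 and 652 CPM in controls. It had 593, 565, 601 and 539.5 CPM at 0.03 mg/kg, 472, 495, 542 and 646 CPM at 0.3 mg/kg and 577, 558, 488 and 59.1 CPM at 3 mg/kg. The 6 mg/kg livers lay under all controls, but the change of -0.69 (SE 0.39, adjusted p = 0.223) was not called in the fit of all 20 libraries. Without replicate 4 at 3 mg/kg, which held 59.1 CPM, it was -0.67 with an adjusted p of 0.000496, and in the fit of the 8 libraries compared it was -0.68 with an adjusted p of 0.00936. The other Hc probe had a positive change of 0.996 (SE 0.40, adjusted p = 0.0852), with 70.1, 60.3, 61.0 and 329.9 CPM at 6 mg/kg against 56.0 to 70.6 CPM in controls, where only replicate 4 was high. C6 had 209, 190.1, 189.5 and 209 CPM at 6 mg/kg, against 115, 121, 171 and 142 CPM in controls, all 4 treated livers above all controls. Its log2 change of 0.54 (SE 0.22, adjusted p = 0.0789) was not called, and it was called without replicate 4 at 3 mg/kg. C7 had 0 to 8 counts per library and was not tested.

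Regulators in plasma gave 4 lower calls and 0 higher calls by main probe among 6 genes, with a median log2 change of -0.49. Over all genes 9.64% were lower and 10.9% higher at 6 mg/kg. Cfhr2, which encodes a complement regulator of plasma, lies at chromosome 1, 139804167 to 139858702, minus strand. Its main probe had 2238, 1870.3, 1951 and 1611 CPM at 6 mg/kg, against 3206, 3409, 2980.4 and 3271 CPM in controls. It had 3130.2, 3009.9, 3213 and 2668 CPM at 0.03 mg/kg, 2665, 2457, 2893 and 3220.3 CPM at 0.3 mg/kg and 3018, 3303, 2826 and 2362 CPM at 3 mg/kg. All livers at 6 mg/kg were under all other livers, and both probes were called, at -0.75 (SE 0.14, adjusted p = 0.000578) and -1.09 (SE 0.18, adjusted p = 0.000205). Cfhr2 has close relatives in the genome, so counts may be shared with them.

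C4bp encodes the alpha chain of C4b-binding protein, which dismantles the classical convertase. C4bp had 46.1, 46.3, 41.3 and 25.9 CPM at 6 mg/kg, against 57.4, 54.6, 52.5 and 72.4 CPM in controls. It held 57.0, 49.4, 63.6 and 60.3 CPM at 0.03 mg/kg, 47.1, 54.0, 60.1 and 74.7 CPM at 0.3 mg/kg and 72.3, 62.1, 54.9 and 64.1 CPM at 3 mg/kg. The groups did not overlap, and the change was -0.57 (SE 0.18, adjusted p = 0.0282), a call that was lost in 4 of 20 fits that left out a library. Without replicate 4 at 6 mg/kg, the lowest of the group, the log2 change of C4bp was -0.43 (adjusted p = 0.0699). Its second probe spanned 0.365 to 2.70 CPM at 6 mg/kg, where controls spanned 1.29 to 3.62 CPM, and was not called, at -0.91 (SE 0.49, adjusted p = 0.191). Cfi encodes factor I, the protease that cuts C3b and C4b. Cfi had 297, 274, 263 and 287 CPM at 6 mg/kg, against 406, 418, 341 and 318 CPM in controls. It had 336, 331, 408 and 352 CPM at 0.03 mg/kg, 350.1, 356, 341 and 362 CPM at 0.3 mg/kg and 283, 312, 280.4 and 299 CPM at 3 mg/kg. The 3 and 6 mg/kg livers overlapped with each other, and all of them lay under all controls. The change at 6 mg/kg was -0.40 (SE 0.12, adjusted p = 0.0175), lost in 3 of 20 such fits.

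Vtn, the gene of vitronectin, which binds the nascent terminal complex, had 622, 633, 621 and 522 CPM at 6 mg/kg, against 802, 787, 875 and 712 CPM in controls. It had 765, 790.2, 914 and 1025 CPM at 0.03 mg/kg, 930.0, 1051, 875 and 759 CPM at 0.3 mg/kg and 666, 593, 624 and 705 CPM at 3 mg/kg. All 8 livers at 3 and 6 mg/kg were under all controls. The change at 6 mg/kg was -0.41 (SE 0.13, adjusted p = 0.0333) for the main probe, lost in 6 of 20 fits that left out a library, and -0.52 (SE 0.14, adjusted p = 0.0136) for the other. With plate row in the model the log2 change of Vtn was -0.078. Serping1, the gene of C1 inhibitor, averaged 154 ± 11.4 CPM at 6 mg/kg and 237 ± 10.6 CPM in controls (SD, n = 4 each) without overlap. Its main probe missed the threshold, with -0.63 (SE 0.24, adjusted p = 0.0721), and its other probe was called lower, with -0.70 (SE 0.20, adjusted p = 0.0165). Clu, the gene of clusterin, which also binds the terminal complex, had the 1 probe called higher. Its main probe was not called, at 0.03 (SE 0.15, adjusted p = 0.89), and its other probe was called higher, with 528, 759, 798 and 961 CPM at 6 mg/kg against 491, 471, 523 and 507 CPM in controls and a change of 0.61 (SE 0.17, adjusted p = 0.0142).

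On membranes, Cd55 speeds the decay of C3 convertases and Cd59a blocks C9 from entering the pore. Neither was called. The main probe of Cd55 changed by -0.34 (SE 0.37, adjusted p = 0.54) and that of Cd59a by -0.31 (SE 0.17, adjusted p = 0.195). At 6 mg/kg the livers spanned 5.80 to 12.2 CPM for Cd55, where controls spanned 6.90 to 11.7 CPM, and 12.8 to 18.5 CPM for Cd59a, where controls spanned 15.6 to 21.2 CPM. Both pairs of ranges overlap.

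The probes of a gene can be set side by side for 17 genes with several tested probes, each of which reads its own stretch of the transcript. At 6 mg/kg the probes of 14 of these genes shared a sign. The other 3, C2, C4b and Hc, had probes on both sides of 0. In 6 genes every probe was called (Mbl1, Cfb, C8b, C9, Cfhr2 and Vtn), in 5 some were, and in 6 none was. Shared signs and calls were not counted over all genes with several probes, so no background share can be set beside these counts. At 3 mg/kg, 7 genes had probes of 1 sign. The gap between the highest and the lowest probe had a median of 0.58 on the log2 scale at 6 mg/kg.

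**Figure D3:**
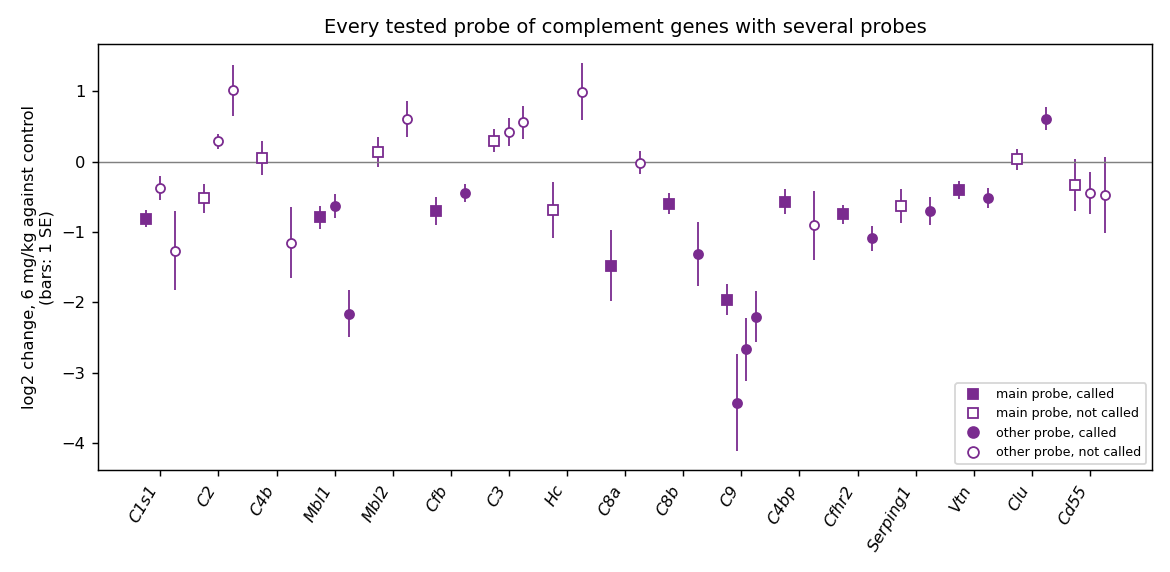
Log2 change of every tested probe at 6 mg/kg against control for the 17 complement genes with several tested probes, with bars of 1 SE. Squares are main probes, circles the other probes, and filled symbols are called. All 4 probes of C9 are far under 0, while the probes of C2, Hc and C4b lie on both sides of it.

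Some probes of the same gene moved apart within single livers. The ratio of probe C9_79600 to the main C9 probe had a median of 0.921 in controls, 0.936 at 0.03 mg/kg, 0.966 at 0.3 mg/kg, 0.475 at 3 mg/kg and 0.329 at 6 mg/kg, so that this probe was lower relative to its partner at both upper doses. In replicate 4 at 3 mg/kg it was 0.00936, with 7.63 CPM for C9_79600 beside 815 CPM for the main probe. The ratio of Mbl1_66414 to the main Mbl1 probe went the same way, with medians of 0.563 in controls, 0.510 at 0.03 mg/kg, 0.461 at 0.3 mg/kg, 0.214 at 3 mg/kg and 0.172 at 6 mg/kg, and 0.0524 in replicate 4 at 3 mg/kg. For C1s1_30273 the ratio to the main probe was 0.0106 in that library and 0.350 to 0.387 in the rest of its group. Its medians were 0.476 in controls, 0.416 at 0.03 mg/kg, 0.396 at 0.3 mg/kg, 0.354 at 3 mg/kg and 0.298 at 6 mg/kg. Probe C8b_32265 over the main C8b probe stood at 0.825 to 0.959 in replicates 1 to 3 at 3 mg/kg and at 0.116 in replicate 4. This ratio was 0.324 to 0.443 at 6 mg/kg, under all controls at 0.465 to 0.865. These ratios differ between libraries of 1 dose and between doses, and probe positions were not used here. What sets them was not tested.

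**Figure D4:**
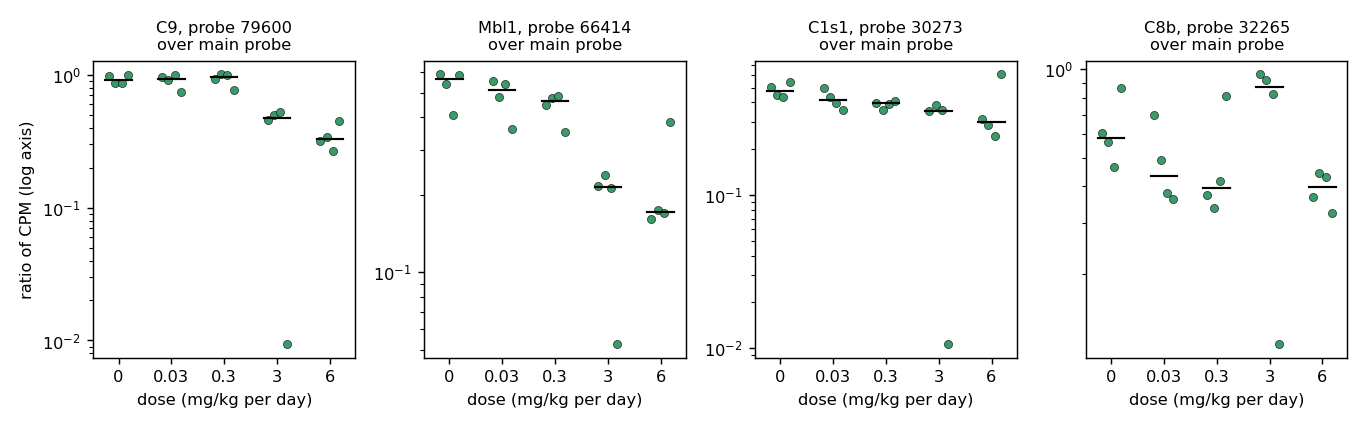
Ratio of a second probe to the main probe of the same gene in each liver, by dose from control (0) to 6 mg/kg, on log axes, with a bar at the median of 4 livers. The lowest point in every panel is replicate 4 at 3 mg/kg, and the C9 and Mbl1 ratios are lower at 3 and 6 mg/kg than in controls.

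At 3 mg/kg, C1ra was the 1 complement gene called lower of 28, and 0 were called higher, where 0.406% of all genes were lower and 1.13% higher. C1ra was at 12.5% of control, a log2 change of -2.998 (SE 0.44, adjusted p = 0.000659). With plate row in the model this was -1.63 with an adjusted p of 0.918, and in the fit of the 8 libraries compared it was -2.98 with an adjusted p of 0.0602. Probe Mbl1_66414 was also lower at 3 mg/kg, at -1.73 (SE 0.33, adjusted p = 0.0074), while the main Mbl1 probe was at -0.18 (SE 0.16, adjusted p = 0.701). Serping1 had a change of -0.82 (SE 0.24, adjusted p = 0.119) and was called when replicate 4 at 3 mg/kg was left out. C6 was at 0.67 (SE 0.22, adjusted p = 0.154) and Cfi at -0.34 (SE 0.12, adjusted p = 0.198). The median over the 28 genes was -0.19, where it was -0.006 over all genes, and 6 of the 28, or 21.4%, had an unadjusted p under 0.05, where 12% of all genes did. The comparisons at 3 and 6 mg/kg share their controls.

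At 0.3 mg/kg and at 0.03 mg/kg edgeR called 0 of the 28 genes, as it did 0% of all genes. At 0.3 mg/kg 2 of the 28 genes had an unadjusted p under 0.05, or 7.14% where 8.67% of all genes did. At 0.03 mg/kg it was 1 gene, or 3.57% where 3.25% of all genes did, so neither share stood out from the background. DESeq2 and limma-voom called 0 at both doses. The median log2 change over the 28 genes at 0.3 mg/kg was -0.040, and C1ra, C9 and Mbl1 were at 0.04 (SE 0.38), -0.27 (SE 0.21) and -0.16 (SE 0.16). At 0.03 mg/kg the same genes were at -0.21 (SE 0.38), -0.0033 (SE 0.21) and 0.09 (SE 0.16).

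Set directly against 3 mg/kg, all of whose libraries share plate row B with those at 6 mg/kg, the 6 mg/kg livers had 6 of 28 genes lower and 0 higher, where 3.19% of all genes were lower and 3.77% higher. Scaling by total counts moved the calls over all probes to 199 lower and 670 higher, in place of 391 and 559. The lower genes were C9 at -1.64 (SE 0.22, adjusted p = 0.000201), C8a at -1.87 (SE 0.51, adjusted p = 0.0332), C4bp at -0.67 (SE 0.18, adjusted p = 0.0282), C1s1 at -0.64 (SE 0.12, adjusted p = 0.00395), Mbl1 at -0.62 (SE 0.16, adjusted p = 0.0273) and Cfhr2 at -0.59 (SE 0.14, adjusted p = 0.0136). C1ra was at -0.64 (SE 0.49, adjusted p = 0.454), and its values at both doses overlapped through replicate 4 at 3 mg/kg, the library that stood apart. The other 3 livers at 3 mg/kg, at 3.87 to 5.28 CPM, all lay above the 6 mg/kg livers. Cfi and Vtn differed little between these doses, at -0.07 (SE 0.12, adjusted p = 0.779) and -0.11 (SE 0.13, adjusted p = 0.661). The count was 2 without replicate 2 at 3 mg/kg, 3 without replicate 1 at 3 mg/kg or replicate 3 at 6 mg/kg, 10 without replicate 4 at 3 mg/kg, and 1, C8a, in the fit of the 8 libraries alone.

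Over all 5 dose ranks taken as 1 slope, 10 of 28 genes were lower with dose and 1, C6, was higher, where 7.24% of all genes were lower and 10.6% higher. Over all probes 949 fell and 1592 rose with dose, and 651 and 1897 with scaling by total counts. The lower ones were C1ra, C1s1, Mbl1, Cfb, C8b, C9, Cfi, Cfhr2, Serping1 and Vtn. The slope per rank was -0.94 (SE 0.18, adjusted p = 0.000997) for C1ra, -0.39 (SE 0.09, adjusted p = 0.00287) for C9 and 0.16 (SE 0.05, adjusted p = 0.0223) for C6. C8a and C4bp, which were lower at 6 mg/kg, had slopes of -0.14 (SE 0.14, adjusted p = 0.501) and -0.09 (SE 0.05, adjusted p = 0.19). With plate row in the model 4 genes had a falling slope and 0 a rising one, and without control replicate 1 the rise of C6 was not called.

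Complement genes outside the 32 were read from a list of 29, of which 15 could be tested. At 6 mg/kg 5 were lower and 1 higher, or 33.3% and 6.67%, where 9.64% and 10.9% of all genes were. The median log2 change was -0.29. At 3 mg/kg 0 of 15 were called, where 0.406% of all genes were lower and 1.13% higher. The list shares C1qa, C1qb, C1qc and Vsig4 with the Kupffer cell markers. In edgeR, Cd59b, a second membrane inhibitor of the pore, was at -1.37 (SE 0.25, adjusted p = 0.000712). C1qb, a chain of C1q that macrophages make, was at -1.18 (SE 0.22, adjusted p = 0.000594) for its main probe, while C1qa and C1qc were at -0.14 and -0.45 and were not called. Cr1l, a regulator of C3 convertases on rodent cells, was at -0.54 (SE 0.17, adjusted p = 0.0306) for its main probe, with its other probes at 0.0093 and -0.0066. C1qbp, a mitochondrial protein that binds C1q, was the 1 called higher, at 0.50 (SE 0.18, adjusted p = 0.0497).

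Markers of other liver cells, each summed over main probes, moved in both directions at 6 mg/kg. By main probe 9.64% of all genes were called lower at this dose and 10.9% higher. The 9 stellate cell markers summed to 105.9 to 150.8 CPM at 6 mg/kg against 189.1 to 219.7 CPM in controls, with 4 lower (Lrat, Reln, Dcn and Rgs5) and 1 higher (Col1a1) and none at 0. The 6 endothelial cell markers summed to 123.4 to 176.6 CPM against 127.0 to 151.8 CPM in controls, with 0 lower and 1 higher, Pecam1, of 5 tested. The 6 neutrophil markers summed to 34.6 to 60.5 CPM against 3.64 to 8.24 CPM in controls. S100a8 carried this sum, with a mean of 46.9 CPM at 6 mg/kg and 1.53 CPM in controls, and was the 1 of 3 tested that was called higher. The other markers did not move with it: Ly6g was at 0.768 CPM against 1.59 CPM in controls and Retnlg at 1.09 CPM against 1.15 CPM, neither called, S100a9 was at 0.464 CPM against 0.878 CPM, and Ngp was at 0 in every 6 mg/kg library. The 6 lymphocyte markers summed to 1.71 to 3.00 CPM against 2.73 to 7.32 CPM in controls, with 2 of 3 tested called lower, Nkg7 among them, and the main probe of Ms4a1 at 0 at 6 mg/kg. The 5 cholangiocyte markers summed to 22.2 to 32.8 CPM against 24.5 to 31.6 CPM in controls, with 0 of 1 tested called. Epcam was at 0 at 6 mg/kg and at 0 to 0.108 CPM in controls. The part of these cells in the complement levels was not tested.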

How the data were processed

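The deposited values are raw TempO-Seq counts, 1 whole number for each probe and liver, which the authors made from the sequencing reads. Bowtie and genome build GRCm38.p5 are named per the submitters' processing notes, and the version of Bowtie is not given in the sources used here. Counts were scaled by TMM and tested with edgeR 4.0.16 (robust quasi-likelihood F test, R 4.3.3) on all 20 libraries, 1 mean for each of the 5 groups, after filterByExpr had left 14122 probes. Benjamini-Hochberg adjustment ran over all tested probes in each of 6 comparisons, with a threshold of 0.05, and the method was tested on simulated data. A gene was counted by its probe with the highest mean count. The 20 libraries hold 6823518 to 10310931 counts. Among 30 pairs of libraries within groups the lowest chi-square over degrees of freedom was 3.66, so none were taken as 1 library deposited in duplicate. The protocols describe each liver as a separate animal.

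DESeq2 1.42.0, limma-voom (limma 3.58.1), other scalings and filters, summed probes, plate row as a covariate and omitted libraries were the alternatives. Values in every library are given for genes called at 6 or 3 mg/kg and for C3, Hc, Cfb, Cfd and Cfp. Genes outside the 32 were named from the lists of other complement genes, factors and cell markers, and Clu, C6 and the single probes described were chosen after their values were seen. The genes and lists were chosen with earlier results of these data known. Gene positions are from GENCODE M21 (GRCm38) and promoter windows from RefSeq (GRCm38.p6). Probe sequences and positions were not used, and some genes of the lists are counted but not reported here by name.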

Additional observations from a re-analysis of the deposited data

Results flagged for a closer look

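A library that lay far from the other 3 of its group was found in 12 of the 140 sets of 4 main-probe values examined. The nominal rate of this rule, for independent normal values, is about 1 in 20. Such libraries were not counted over all genes, so no background share can be set beside the 12. Of the 12, 6 were in replicate 4 at 3 mg/kg. That library was also the lowest of all 20 for 19.7% of all tested probes and the highest for 11.2%. In that liver Colec11 was at 0.477 CPM (others 6.78 to 7.89), Masp1 at 74.6 CPM (others 347.7 to 377.4) and Serping1 at 48.8 CPM (others 156.5 to 171.6). In the same liver C1rl was at 170.8 CPM (others 109.4 to 119.1), C3 at 2472 CPM (others 1396 to 1536) and C6 at 351.7 CPM (others 167.6 to 180.0). Complement genes were therefore both lower and higher there than in the rest of the group.

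At 6 mg/kg, C3 in replicate 1 was lower than in the rest, at 1459 CPM where the others had 1925 to 2003 CPM. Vtn was lower in replicate 4, at 521.6 CPM where the others had 620.6 to 632.7 CPM. C1ra was higher in replicate 1, at 2.64 CPM where the others had 2.10 to 2.19 CPM. At 3 mg/kg, Colec10 was higher in replicate 3, at 4.09 CPM where the others had 2.91 to 2.96 CPM. At 0.3 mg/kg, C8a was higher in replicate 4, the library in plate row B, at 521.5 CPM where the others had 101.2 to 157.3 CPM. At 0.03 mg/kg, Cfb was higher in replicate 1, at 1489 CPM where the others had 1229 to 1266 CPM.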

How the results depend on the processing

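The 11 genes lower at 6 mg/kg became 6 with scaling by total counts, 7 with no count filter and 4 with plate row in the model, and 7 to 15 with 1 library left out. Higher genes at 6 mg/kg, 0 in the fit of all libraries, became 1 without both replicates 4, 1 with only the 8 libraries compared, and 0 to 3 with 1 library left out. The 1 gene lower at 3 mg/kg became 2 with total counts, 2 without both replicates 4, 0 with plate row, 0 with only 8 libraries, and 1 to 2 with 1 library left out. Against 3 mg/kg, the 6 genes lower at 6 mg/kg became 12 without both replicates 4, 1 with only 8 libraries, and 2 to 10 with 1 library left out. The 10 falling slopes became 6 with total counts, 4 with plate row and 8 to 13 with 1 library left out. The 1 rising slope became 2 with at least 10 counts in 10 libraries, 2 with DESeq2, 2 with summed probes, 0 with plate row and 0 to 2 with 1 library left out. The cause of these differences was not tested. Signs were compared at 6 and 3 mg/kg against control, for the main probes of the 11 genes, C3 and Hc. No called value among these changed sign in any setting. Signs of other genes, other probes and the other comparisons were not compared. Of the genes lower at 6 mg/kg, C1s1, C9 and Cfhr2 were called in every setting, while C8a was lost in 5 of 11 other settings and C4bp, Cfi and Vtn in 4 each. Depth limits Cfd, Cfp and C7, with at most 8 counts in a library. No paired analysis was run, as each liver is described as a separate animal. The labels give no replicate numbers, and those used here follow the order of plate positions.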

Other observations

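Factors and receptors known to act on complement genes in hepatocytes were read from a list of 14, of which 12 could be tested at 6 mg/kg. Of these, 4 were lower and 1 was higher, or 33.3% and 8.33%, where 9.64% and 10.9% of all genes were. The median log2 change was -0.28. At 3 mg/kg 0 were called, where 0.406% of all genes were lower and 1.13% higher. Cebpa, a hepatocyte transcription factor of the C/EBP family, averaged 361 ± 24.3 CPM at 6 mg/kg and 914 ± 66.8 CPM in controls (SD, n = 4 each), with an edgeR log2 change of -1.34 (SE 0.16, adjusted p = 6.81e-06), and its other probe changed by -1.41. Cebpb, the family member known from the acute phase response, averaged 54.0 ± 17.5 CPM at 6 mg/kg and 28.5 ± 3.07 CPM in controls (SD, n = 4 each). Its edgeR log2 change was 0.92 (SE 0.23, adjusted p = 0.00719), and that of its other probe was 1.003.

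Irf1, an interferon-responsive factor, averaged 33.9 ± 3.17 CPM at 6 mg/kg and 63.5 ± 8.02 CPM in controls (SD, n = 4 each), an edgeR log2 change of -0.91 (SE 0.14, adjusted p = 0.000119). Il6st, the shared receptor chain of interleukin 6 signals, was at -0.36 (SE 0.10, adjusted p = 0.0195). Stat3, which follows it, was not called at -0.58 (SE 0.21, adjusted p = 0.0587) for its main probe. The other Stat3 probe had the opposite sign, at 0.59 (SE 0.27, adjusted p = 0.126), and was not called. Hnf4a was not called at -0.15 (SE 0.26, adjusted p = 0.709). For Nr1h4, the bile acid receptor, the main probe was at -0.20 (SE 0.13, adjusted p = 0.269) and the other, at 2.54 CPM against 16.7 CPM in controls, was called lower at -2.71 (SE 0.54, adjusted p = 0.00165). Hnf4a is also among the hepatocyte markers.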
